A study of Gallus gallus with 6 samples.

Results

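The genes described are the core and regulatory proteins of pre-mRNA splicing in HD11 cells, an established chicken line with the character of macrophages. They were taken by gene symbol, as every row whose symbol begins with SRSF and a digit, with HNRNP, with SF3A or SF3B and a digit, with SNRNP and a digit, with SNRP and a letter, or with PRPF and a digit. This gave 63 of the 14903 genes in the deposited tables, of which 62 had enough reads to be tested. Total RNA was sequenced as paired ends from 3 mock cultures, left untreated, and from 3 cultures stimulated for 3 h with 100 ng/mL of recombinant chicken IFN-beta. IFN-beta (interferon beta) belongs to the type I interferons. All 6 libraries came from wild type cells, are labelled as independent biological replicates and share 1 batch, and no time is recorded for the mock cells. The comparison addresses how these cells change their transcripts early after a type I interferon.

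Splicing removes introns from pre-mRNA in the spliceosome, a machine built anew on each intron from small nuclear ribonucleoproteins (snRNPs). The U1 snRNP marks the 5′ splice site and the U2 snRNP, with its SF3A and SF3B complexes, the branch point. The U4/U6.U5 tri-snRNP then joins, and helicases and PRPF proteins rearrange the RNAs into the active form. A ring of Sm proteins surrounds the RNA of most snRNPs. SRSF proteins (serine- and arginine-rich factors) mostly promote the use of nearby exons, while HNRNP proteins coat nascent RNA and often repress exons. In macrophages, splicing factors are known to shape the processing of inflammatory transcripts.

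Totals were 15665594 to 15885227 reads per library, and 13388 to 13465 genes had a read. The label of a macrophage-like line was checked against marker genes. The 9 macrophage markers measured of 10 listed summed to 4963 to 5045 CPM (depth-scaled read counts, here on the effective library size) in mock and 5811 to 5962 CPM in IFN-beta, and 6 of them rose and 2 fell. Summed levels of the other marker lists were 1.11 to 1.86 CPM in mock and 1.36 to 1.89 CPM in IFN-beta for 5 T cell genes of 6, 0.494 to 0.553 and 0.130 to 0.390 CPM for 4 fibroblast genes of 5, and at most 0.0652 CPM for the 1 erythroid gene measured of 5. For 3 epithelial genes of 5 they were 0.676 to 1.05 and 0.390 to 1.04 CPM. Only the B cell list, of which 4 of 5 genes were measured, stood higher, at 19.9 to 21.6 CPM in mock and 39.3 to 43.8 CPM in IFN-beta, and its BCL6 rose from 14.2 to 34.7 CPM. BLK of that list stood at 5.90 CPM in mock and 6.22 CPM in IFN-beta and did not pass, CD72 had 59 reads over all 6 libraries and CD79B 3 reads. The part of these markers in the results was not tested. In bulk libraries fewer cells of a type and less RNA per cell cannot be told apart.

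Splicing factor genes were abundant before any treatment. Together they took 1.75 to 1.76% of all reads in the mock libraries and 1.72 to 1.75% in the IFN-beta libraries, ranges that meet. On the TPM scale (the authors' length-corrected abundance, by which genes can be compared), the tested members had a median mock level of 144 TPM against 17.6 TPM for all tested genes, and 54 of the 63 members lay above the 80th percentile of all genes. The highest mock TPM were those of the Sm ring protein gene SNRPF, at 1079 TPM, and of HNRNPA2B1, an RNA-binding protein of exon silencing and transport, at 947 TPM. SNRPF had only 68.5 CPM in mock. The length implied by its counts and TPM was 0.0326 times that of the median tested gene, so its rank rests on this short length. By CPM the highest mock mean was that of HNRNPA3, at 1318 CPM. The SRSF genes ran from SRSF3, the smallest SR protein, at 561.5 TPM down to SRSF4 at 7.89 TPM. Among proteins of the minor spliceosome, which removes a rare class of introns, SNRNP25, SNRNP48 and SNRNP35 stood at 55.2, 9.49 and 5.33 TPM. HNRNPKL, a paralogue of the poly(C)-binding protein gene HNRNPK, was the member left out of the test, with 21 reads summed over mock and 19 over IFN-beta, while HNRNPK itself stood at 324 TPM in mock.

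After IFN-beta the levels of splicing factor genes moved little. Of the 62, 0 had a fitted difference of 1.5-fold, against 12% of all tested genes, and 7 had one over 1.2-fold, or 11.3%, against 33.7% of all tested genes. The 95% interval of the change lay within 1.5-fold in either direction for all 62 and within 1.25-fold for 50 of them. Among tested genes in the same range of levels (4.84 to 1332 CPM) 8.92% passed 1.5-fold and 28.9% passed 1.2-fold. That range held 9206 of the 11091 tested genes, so it matched the members in level only loosely. The middle of the distribution lay slightly above 0, with a median log2 fold change of 0.07 over the members and -0.001 over all 11091 tested genes, and the plot of fitted changes shows the members in a narrow band.

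**Figure D1:**
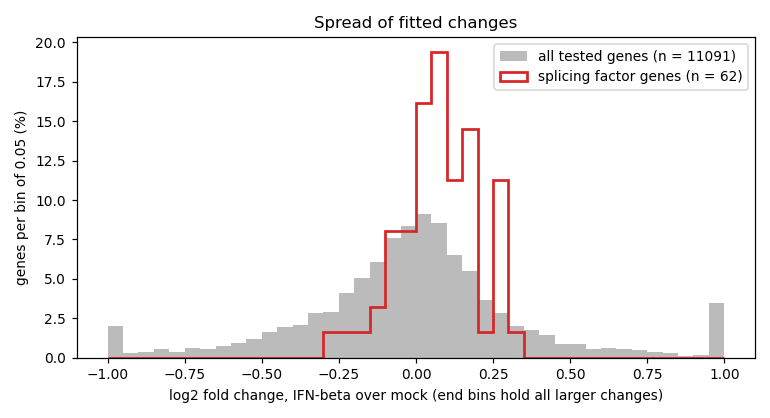
Distribution of fitted log2 fold changes of IFN-beta over mock in bins of 0.05, as a percentage of the 62 tested splicing factor genes (line) and of the 11091 tested genes (grey), with larger changes gathered in the end bins. The splicing factor genes lie between -0.27 and 0.30, while all genes run from -3.20 to 7.40.

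Libraries of a group were close to each other, with a biological coefficient of variation of 3.56% over all genes. At an adjusted p under 0.05 (edgeR quasi-likelihood test, Benjamini-Hochberg, written BH below, over all tested genes), 19 members rose and 4 fell, together 37.1% against 46.7% of all tested genes. The share that rose was 30.6%, against 24.3% of all tested genes, and the share that fell was 6.45%, against 22.4%. In the same range of levels 26.7% of genes rose and 23.5% fell. Leaving out mock replicate 2 gave 18 that rose and 1 that fell (21% and 17.9% of all tested genes). Leaving out mock replicate 3 gave 28 and 7 (25.1% and 23.4%), and leaving out IFN-beta replicate 3 gave 17 and 1 (20.8% and 18.8%). Every IFN-beta library lay above every mock library for 24 members and below for 5, where all tested genes gave 27.5% and 26.3%. The split depended on the scaling of the libraries. It was 14 higher and 12 lower with upper quartile factors (18.2% and 30.3% of all tested genes), 9 and 13 with library size alone (15.6% and 36.1%) and 8 and 14 on log2(TPM + 1) (13.5% and 37.6%), and the median of all genes moved to -0.06, -0.09 and -0.10 under these. The gap between the median of the members and that of all genes was 0.0752 in the edgeR fit above and 0.0749, 0.075 and 0.0604 in these fits. Upper quartile factors and library size alone shift every gene by about the same amount, so the gap could hardly change there. On log2(TPM + 1) with no filter on level the gap was 0.0104.

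**Figure D2:**
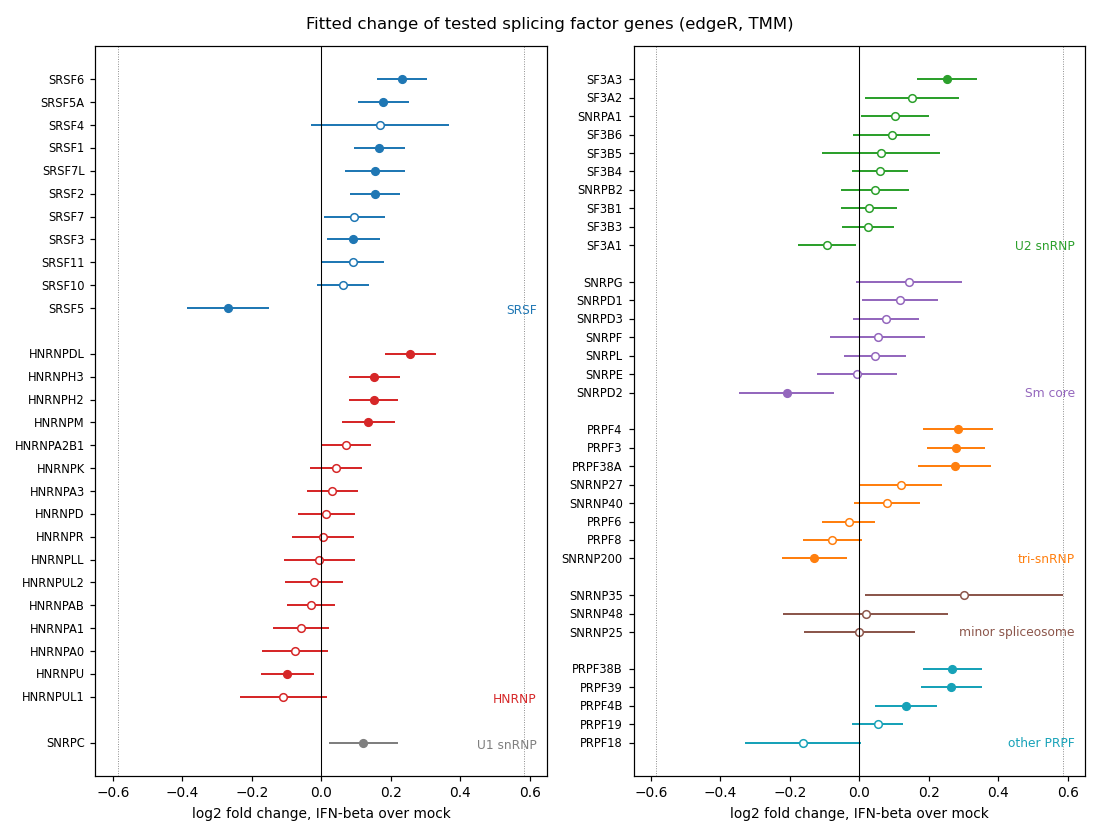
Fitted log2 fold change of IFN-beta over mock by family for the tested splicing factor genes, 1 of which is not drawn, with its 95% interval from an approximate SE. Filled circles passed an adjusted p of 0.05 and dotted lines mark 1.5-fold. All 62 intervals lie between -0.38 and 0.58, and PRPF4 and SRSF5 mark the largest called changes in each direction.

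Of the 23 called members, 9 were called in the same direction in each of the 17 alternative fits, which were PRPF4, PRPF3, PRPF38A, PRPF38B, PRPF39, HNRNPDL, SF3A3 and SRSF6 among those that rose and SRSF5 among those that fell. This count was not made over all called genes, so it does not show whether the members kept their calls more or less often. PRPF4 and PRPF3 encode partner proteins of the U4/U6 snRNP. PRPF4 stood at 81.6, 82.5 and 89.2 CPM in the mock libraries and 98.7, 104 and 106 CPM in the IFN-beta libraries, the largest rise of a called member at 0.28 (SE 0.05, edgeR BH-adjusted p = 5.42e-05). PRPF3 stood at 160.0, 153 and 157 CPM in the mock libraries and 184, 196 and 190.5 CPM in the IFN-beta libraries, a log2 fold change of 0.28 (SE 0.04, edgeR BH-adjusted p = 5.39e-06). In both genes every IFN-beta library was above every mock library. PRPF3, PRPF38A and PRPF38B overlap another gene of the deposited tables in the RefSeq annotation (MRPS21, ZCCHC11 and HENMT1), and since the strand setting of the counting is not known, reads of such pairs cannot be told apart. The same holds for 14 members in all, among them SRSF1, SRSF2, SRSF7L, HNRNPH2 and HNRNPA2B1. Changes are log2 fold changes of IFN-beta over mock throughout. Levels of the 9 genes in each library are shown in the plot of CPM relative to the mock mean.

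**Figure D3:**
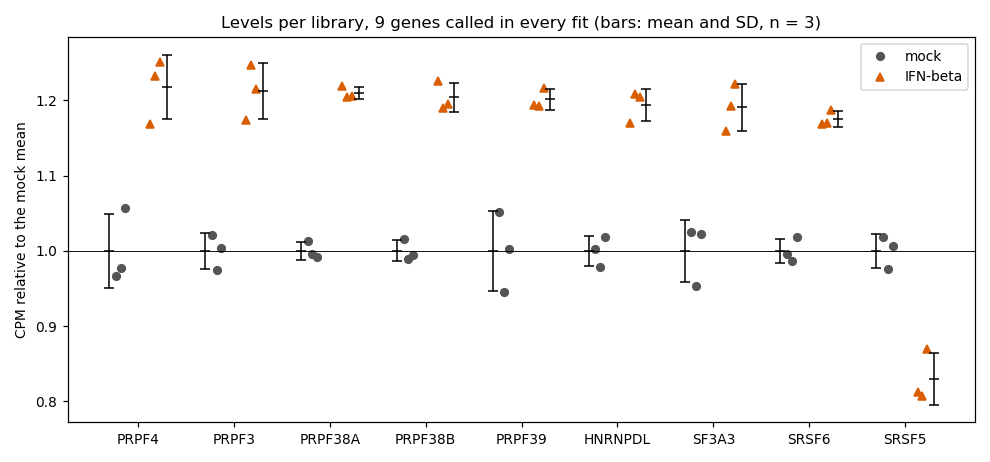
CPM of the 9 splicing factor genes called in all 18 fits, relative to the mean of the 3 mock libraries, for each mock (circles) and IFN-beta (triangles) library, with bars for mean and SD (n = 3); the vertical axis does not start at 0. The IFN-beta means are 1.18 to 1.22 times the mock mean for the 8 genes that rose and 0.830 times for SRSF5.

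Among SRSF genes 6 of 11 tested rose (54.5%, beside 24.3% of all tested genes), 1 fell (9.09%, beside 22.4%) and 4 missed the threshold, with a median log2 fold change of 0.15. Scaled by library size alone, 2 members rose, 1 fell and the median was 0.06, where 15.6% and 36.1% of all tested genes rose and fell. On log2(TPM + 1) the counts were 1 and 1, with a median of 0.04, beside 13.5% and 37.6%. SRSF6, a regulator of alternative exons, stood at 400.1, 396 and 409 CPM in the mock libraries and 469.5, 470.1 and 477 CPM in the IFN-beta libraries. Its change was 0.23 (SE 0.03, edgeR BH-adjusted p = 8.3e-06), and all IFN-beta libraries were above all mock libraries. SRSF5A stood at 521, 499.8 and 502 CPM in the mock libraries and 568, 578 and 578 CPM in the IFN-beta libraries, a change of 0.18 (SE 0.03, edgeR BH-adjusted p = 0.000187) that did not pass on the TPM scale. SRSF5, the gene of the related SR protein, went the other way and stood at 40.9, 39.2 and 40.4 CPM in the mock libraries and 32.7, 32.5 and 34.9 CPM in the IFN-beta libraries. Its change was -0.27 (SE 0.06, edgeR BH-adjusted p = 0.000487), with no overlap between the groups. It is the least abundant called SRSF gene, at 39.4 TPM in mock against 342 TPM for SRSF5A.

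The classical SR proteins SRSF1 and SRSF2, which bind exonic enhancers and recruit snRNPs, rose by small amounts. SRSF1 stood at 612, 586 and 598 CPM in the mock libraries and 662, 666 and 688 CPM in the IFN-beta libraries, with a change of 0.17 (SE 0.03, edgeR BH-adjusted p = 0.000428). SRSF2 stood at 825, 804 and 821 CPM in the mock libraries and 923, 910.2 and 894 CPM in the IFN-beta libraries, with a change of 0.15 (SE 0.03, edgeR BH-adjusted p = 0.000641). In both genes the groups did not overlap on the scaled CPM, and neither call held with library size alone or on the TPM scale, where the log2 fold changes were 0.05 to 0.07. SRSF3 rose from 465 ± 4.77 CPM to 496 ± 17.5 CPM (means ± SD, n = 3, here and below; 0.09, SE 0.04, edgeR BH-adjusted p = 0.0363). Its log2 fold change was -0.0002 with library size alone and -0.02 on log2(TPM + 1), and it did not pass with upper quartile factors or without mock replicate 2, IFN-beta replicate 1 or IFN-beta replicate 3. SRSF7L rose from 127 ± 4.70 CPM to 141 ± 2.98 CPM, a call that ended with upper quartile factors, library size alone and TPM, and SRSF7, at 193 ± 9.18 CPM in mock and 206 ± 5.28 CPM in IFN-beta, did not pass (edgeR BH-adjusted p = 0.0573). These paralogues have swapped names in RefSeq, and the counting of their shared sequence is not known. SRSF10, an exon repressor or activator by context, and SRSF11 had changes of 0.06 and 0.09, and SRSF4 one of 0.17 with an interval of -0.03 to 0.36, and these did not pass.

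In the HNRNP family 4 of the 16 tested genes rose, a share of 25% that is near the 24.3% of all tested genes, 1 fell (6.25%, beside 22.4%) and 11 missed the threshold, around a median log2 fold change of 0.01. With library size alone, and also on log2(TPM + 1), 1 rose and 6 fell. The medians were -0.08 and -0.10, beside -0.09 and -0.10 for all tested genes. Of all tested genes 15.6% rose and 36.1% fell with library size alone, and 13.5% and 37.6% on log2(TPM + 1). HNRNPDL, a relative of the RNA decay factor HNRNPD, had the largest change and stood at 422, 412 and 428 CPM in the mock libraries and 492, 508 and 507 CPM in the IFN-beta libraries. The change was 0.26 (SE 0.03, edgeR BH-adjusted p = 3.44e-06), with no overlap of the groups. HNRNPD, its neighbour in the RefSeq gene order, stood at 124, 120.5 and 122 CPM in the mock libraries and 125, 123 and 122 CPM in the IFN-beta libraries, values that overlap (log2 fold change 0.01, interval -0.06 to 0.09). HNRNPH2, which the RefSeq table names HNRNPH1, and HNRNPH3 encode binders of G-rich RNA. HNRNPH2 rose from 1028 ± 13.8 CPM to 1141 ± 24.3 CPM (log2 fold change 0.15) and HNRNPH3 from 524 ± 10.9 CPM to 582 ± 10.3 CPM (0.15). HNRNPM, a regulator of exon skipping, rose from 339 ± 4.58 CPM to 372 ± 11.1 CPM (0.14). The calls of HNRNPH2, HNRNPH3 and HNRNPM ended with library size alone and on the TPM scale, and that of HNRNPM also with upper quartile factors.

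HNRNPU, a nuclear scaffold protein that binds chromatin and RNA, was the HNRNP gene that fell, with 749, 734 and 704 CPM in the mock libraries and 697, 669 and 678 CPM in the IFN-beta libraries. Its change was -0.10 (SE 0.03, edgeR BH-adjusted p = 0.0269). The call ended when mock replicate 1 or 2, or IFN-beta replicate 2 or 3, was left out. The most abundant member of the family on the TPM scale, HNRNPA2B1, did not pass. It stood at 1112, 1088 and 1079 CPM in the mock libraries and 1157, 1133 and 1159 CPM in the IFN-beta libraries, a non-overlapping difference of 0.07 (edgeR BH-adjusted p = 0.0738). HNRNPA1, a repressor of exon inclusion, stood at 468, 485 and 514 CPM in the mock libraries and 466, 473 and 472 CPM in the IFN-beta libraries. Its log2 fold change was -0.06 (interval -0.13 to 0.02), and it passed as lower with upper quartile factors (-0.12), library size alone (-0.15) and on log2(TPM + 1) (-0.17). HNRNPK had a change of 0.04 (interval -0.03 to 0.11). The remaining members ran from -0.11 for HNRNPUL1 to 0.03 for HNRNPA3, and did not pass. Between them were HNRNPR at 0.01, HNRNPLL at -0.01, HNRNPUL2 at -0.02, HNRNPAB at -0.03 and the gene listed as HNRNPA0, which RefSeq names RBMXL3, at -0.08.

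In the U2 snRNP 1 of the 10 tested genes rose (10%, beside 24.3% of all tested genes), none fell (beside 22.4%) and 9 missed the threshold. The median log2 fold change was 0.06. It was -0.03 with library size alone and -0.05 on log2(TPM + 1), and in each of these fits 1 rose and 1 fell. All tested genes gave 15.6% and 36.1% with library size alone, and 13.5% and 37.6% on log2(TPM + 1). SF3A3, a subunit of the SF3A complex that joins U2 to the intron, stood at 150.5, 139.9 and 150.1 CPM in the mock libraries and 170.1, 175 and 179 CPM in the IFN-beta libraries. It rose by 0.25 (SE 0.04, edgeR BH-adjusted p = 3.42e-05), without overlap. Its partner SF3A1 stood at 152, 159 and 153 CPM in the mock libraries and 149, 146 and 140.4 CPM in the IFN-beta libraries, lower in all IFN-beta libraries with a change of -0.09, but did not pass (edgeR BH-adjusted p = 0.0531). SF3B1, the subunit that contacts the branch point region, stood at 438, 417 and 397 CPM in the mock libraries and 423, 427 and 427 CPM in the IFN-beta libraries. These overlap, and the interval of its change was -0.05 to 0.11. SF3B3, SF3B4, SF3B5 and SF3B6, its complex partners, had changes of 0.03 to 0.09, SF3A2 of the SF3A complex one of 0.15 (edgeR BH-adjusted p = 0.0577), and the U2 proteins SNRPA1 and SNRPB2 0.10 and 0.04. From the U1 snRNP 1 gene was analysed, SNRPC, which helps U1 hold the 5′ splice site. It rose from 173 ± 11.9 CPM to 188 ± 6.94 CPM (0.12, edgeR BH-adjusted p = 0.0364), with overlapping groups, and did not pass with upper quartile factors, library size alone, DESeq2 or on the TPM scale, nor without mock replicate 1 or 2 or IFN-beta replicate 2 or 3.

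Of the 7 Sm ring genes 0 were called higher in edgeR, beside 24.3% of all tested genes. In the same fit 1 fell (14.3%, beside 22.4%) and 6 did not pass. The median log2 fold change was 0.05, which turned to -0.04 with library size alone and -0.05 on log2(TPM + 1). On log2(TPM + 1) 2 fell, beside 37.6% of all tested genes. SNRPD2, a ring subunit, stood at 40.9, 48.4 and 44.2 CPM in the mock libraries and 39.6, 39.7 and 36.2 CPM in the IFN-beta libraries. Its change was -0.21 (SE 0.06, edgeR BH-adjusted p = 0.0112) with no overlap, a call that ended when mock replicate 2 or IFN-beta replicate 3 was left out. The other ring genes had values from -0.01 for SNRPE to 0.14 for SNRPG, with SNRPD3 at 0.08 and SNRPL, which RefSeq names SNRPN, at 0.05. SNRPG passed as higher without mock replicate 3 (log2 fold change 0.19) and without IFN-beta replicate 1 (0.24), and SNRPF, at 0.05, ran from 0.0013 to 0.1273 with 1 library left out. Of the ring genes above 0, 1 had an unadjusted p under 0.05 in edgeR (SNRPD1, 0.034). DESeq2 called 0 higher, while edgeR with the replicate number as a block, which was not taken as the design, called 3 higher.

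In the tri-snRNP, 3 of 8 tested members rose (37.5%, beside 24.3% of all tested genes) and 1 fell (12.5%, beside 22.4%). With library size alone 3 rose and 3 fell, beside 15.6% and 36.1% of all tested genes. The counts were the same on log2(TPM + 1), beside 13.5% and 37.6%. Besides PRPF3 and PRPF4, the third gene that rose was PRPF38A, needed for activation of the assembled spliceosome. Families were set by gene symbol, and PRPF38A was placed with the tri-snRNP by that choice, so the share above depends on it. PRPF38A stood at 49.0, 48.1 and 47.9 CPM in the mock libraries and 58.9, 58.2 and 58.3 CPM in the IFN-beta libraries with no overlap, a change of 0.27 (SE 0.05, edgeR BH-adjusted p = 0.000113). PRPF8, the large U5 protein at the catalytic centre, stood at 759.9, 752 and 698 CPM in the mock libraries and 726, 697 and 671 CPM in the IFN-beta libraries. These values overlap, and its change of -0.08 did not pass (edgeR BH-adjusted p = 0.115), but passed as lower with upper quartile factors, library size alone and on the TPM scale, and without mock replicate 3 or IFN-beta replicate 1. SNRNP200, the helicase that unwinds U4 from U6, stood at 251, 242 and 223 CPM in the mock libraries and 223, 221 and 209 CPM in the IFN-beta libraries. It fell by 0.13 on the log2 scale (edgeR BH-adjusted p = 0.0181), although mock replicate 3 was level with the highest IFN-beta library, and the call ended when mock replicate 1 or 2, or IFN-beta replicate 3, was left out. PRPF6, which bridges U5 to U4/U6, had a change of -0.03, and SNRNP40 and SNRNP27 changes of 0.08 and 0.12, which did not pass.

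Of the 6 remaining PRPF genes 4 rose in edgeR (66.7%, beside 24.3% of all tested genes). In that fit 0 fell, beside 22.4%, and 2 did not pass. Library size alone gave 2 higher and 1 lower, where the shares of all tested genes were 15.6% and 36.1%. The TPM fit, log2(TPM + 1), gave the same counts, beside 13.5% and 37.6%. PRPF38B, a relative of PRPF38A, stood at 104, 101 and 102 CPM in the mock libraries and 125, 121 and 122 CPM in the IFN-beta libraries, a change of 0.27 (SE 0.04, edgeR BH-adjusted p = 1.33e-05). PRPF39, a counterpart of a yeast U1 snRNP protein, stood at 171, 154 and 163 CPM in the mock libraries and 194, 194 and 198 CPM in the IFN-beta libraries, a change of 0.26 (SE 0.04, edgeR BH-adjusted p = 2.19e-05). PRPF4B, a kinase of the spliceosome, rose from 138 ± 6.08 CPM to 152 ± 4.04 CPM (0.13), a call that ended with upper quartile factors, with library size alone and on the TPM scale. PRPF19, the ubiquitin ligase that names the Prp19 complex, stood at 441, 434 and 446 CPM in the mock libraries and 444, 464 and 462 CPM in the IFN-beta libraries, with a change of 0.05 (interval -0.02 to 0.12). PRPF18, a factor of the later splicing step, had -0.16 (interval -0.33 to 0.00). In the minor spliceosome 0 of 3 genes passed in edgeR, beside 46.7% of all tested genes. Of the 3, 1 had an unadjusted p under 0.05 in edgeR (SNRNP35, 0.038), and DESeq2 called 0. SNRNP35 stood at 4.33, 4.98 and 3.70 CPM in the mock libraries and 5.2, 5.54 and 5.30 CPM in the IFN-beta libraries, from 211 reads over mock and 246 over IFN-beta, with the largest fitted value of any member (0.30) and the widest interval (0.02 to 0.58).

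**Figure D4:**
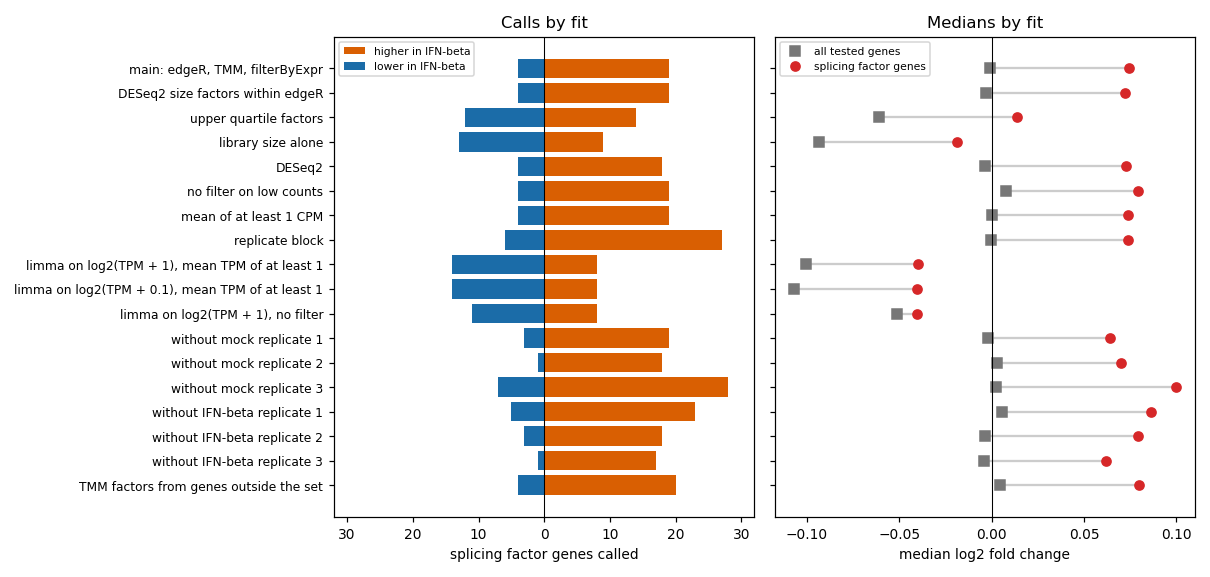
Left, splicing factor genes called higher (right of 0) or lower (left of 0) in IFN-beta under the edgeR fit at the top and each alternative. Right, median log2 fold change of the splicing factor genes (circles) and of all tested genes (squares). The circle lies to the right of the square in every row, by 0.06 to 0.10 except on log2(TPM + 1) with no filter (0.01), while both move to lower values with upper quartile factors, library size alone and TPM.

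Ratios of members within a library do not depend on how libraries are scaled. Differences between libraries along gene length, described below, may remain in them, which was not tested. The pairs were chosen after the values were seen, so they are given as a description with no test. The TPM of SRSF5 over that of SRSF5A was -3.13, -3.13 and -3.10 on the log2 scale in the mock libraries and -3.58, -3.62 and -3.51 in the IFN-beta libraries, a fall by 0.45. SF3A3 over SF3A1 was 0.95, 0.78 and 0.94 in mock and 1.16, 1.23 and 1.32 in IFN-beta, higher by 0.35. PRPF3 and PRPF4 together over PRPF8 and SNRNP200 together gave -0.32, -0.32 and -0.14 in mock and 0.01, 0.15 and 0.19 in IFN-beta, higher by 0.38. The implied lengths of PRPF3 and PRPF4 were 0.80 and 0.72 times that of the median tested gene, and those of PRPF8 and SNRNP200 2.80 and 2.14 times. HNRNPDL over HNRNPD was 1.87, 1.87 and 1.91 in mock and 2.11, 2.19 and 2.19 in IFN-beta, higher by 0.28. In each of these ratios all IFN-beta libraries lay on one side of all mock libraries. The paralogue ratio SRSF7L over SRSF7 differed by 0.06, with -0.66, -0.64 and -0.68 in mock and -0.60, -0.63 and -0.58 in IFN-beta, also with no overlap. The groups did not overlap either for SNRPD2 over SNRPD1 and HNRNPA2B1 over HNRNPA1, which differed by -0.33 and 0.13.

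Within a group, members differed between libraries along their length. Length was taken as the value implied by the deposited counts and TPM, relative to the median tested gene. Mock replicate 3 was the highest mock library for 6 of 7 Sm ring genes, which are short, with log2 differences of these 6 from mock replicate 1 of 0.12 to 0.25. It was the lowest for 4 of 8 tri-snRNP genes, PRPF38A, PRPF6, PRPF8 and SNRNP200, and the highest for 3 of the 8. Of those named, PRPF38A is short, at 0.371 times the median, and differed by only -0.03 from mock replicate 1. Across the 62 members, the log2 difference of mock replicate 3 from mock replicate 1 had a Spearman rho of -0.70 with length, and that of IFN-beta replicate 3 from IFN-beta replicate 1 one of -0.63. Over 8390 genes of at least 10 CPM the same rho was -0.57 and -0.50. The fitted change of IFN-beta over mock had a rho of -0.13 with length over the members and -0.18 over the 8390 genes. These are correlations across genes that share libraries and are given as a description. Without mock replicate 3 the number of members that rose was 28 and the number that fell 7, beside 25.1% and 23.4% of all tested genes. Without IFN-beta replicate 1 the numbers were 23 and 5 (23.4% and 20.1%), and without IFN-beta replicate 3 they were 17 and 1 (20.8% and 18.8%). The part of length in the calls was not tested.

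**Figure D5:**
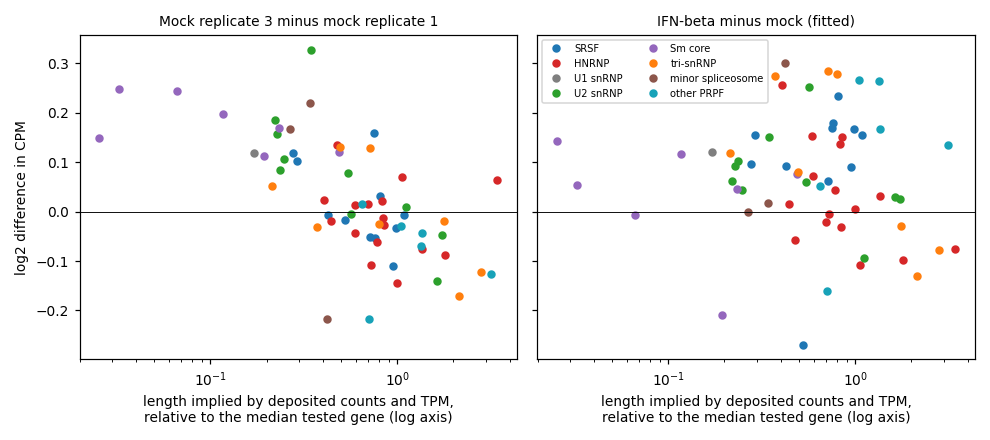
Each point is 1 of the 62 tested splicing factor genes, coloured by family, placed by its length relative to the median tested gene (log axis). The vertical axis gives the log2 difference in CPM of mock replicate 3 from mock replicate 1 (left), where short genes lie high and long genes low (rho -0.70), and the fitted IFN-beta change (right), where the trend with length is weak (rho -0.13).

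Other genes of the splicing pathway were read from 8 lists with 164 genes matched of 189 listed and 160 tested, of which 46 rose and 12 fell, with a median log2 fold change of 0.07. The share that rose, 28.8%, is close to the 24.3% of all tested genes, and 7.5% fell, beside 22.4%. With library size alone 22 rose and 39 fell (median -0.03), where 15.6% and 36.1% of all tested genes did. The largest change over the lists was that of a kinase that phosphorylates SR proteins. SRPK2, a cytoplasmic SR protein kinase, stood at 52.4, 51.7 and 50.9 CPM in the mock libraries and 33.3, 31.9 and 28.3 CPM in the IFN-beta libraries. It fell by 0.73 on the log2 scale (SE 0.06, edgeR BH-adjusted p = 4.29e-09), more than any SRSF gene. DYRK2, a kinase of the related DYRK family, fell from 31.1 ± 2.09 CPM to 23.5 ± 1.88 CPM (-0.40), and CLK4, a nuclear kinase that releases SR proteins from speckles, rose from 24.7 ± 0.524 CPM to 31.3 ± 2.35 CPM (0.34). In this list 2 of 11 tested genes rose (18.2%), 3 fell (27.3%) and 6 did not pass.

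Among SR-related proteins and U2AF, 7 of 20 rose (35%, beside 24.3% of all tested genes) and none fell (3 and 3 with library size alone). Of all tested genes 22.4% fell, and with library size alone 15.6% rose and 36.1% fell. TRA2B and TRA2A, exon activators with RS domains, rose from 199 ± 3.24 CPM to 237 ± 8.63 CPM (0.25) and from 286 ± 3.91 CPM to 335 ± 13.0 CPM (0.22), and LUC7L2, a U1-associated protein, from 254 ± 5.40 CPM to 289.7 ± 2.94 CPM (0.19). Of 36 other splicing regulators 9 rose, or 25% and near that share, and 5 fell (7 and 14 with library size alone). RBM17, a factor of 3′ splice site recognition, rose from 80.8 ± 2.31 CPM to 105 ± 5.88 CPM (0.38), CELF1, a binder of GU-rich RNA, rose from 139.7 ± 7.02 CPM to 177 ± 9.75 CPM (0.34), and MBNL1, which often opposes CELF proteins, fell from 896 ± 25 CPM to 762 ± 10.5 CPM (-0.23). In the Prp19 and step factor list 7 of 29 rose, or 24.1% and also near it, and 1 fell (2 and 5 with library size alone). PLRG1 of the Prp19 complex rose from 154 ± 3.62 CPM to 184 ± 8.18 CPM (0.26), SMNDC1, a relative of the motor neuron protein SMN, from 120.4 ± 3.16 CPM to 146 ± 5.42 CPM (0.27), and SLU7, a factor of 3′ splice site choice, fell from 49.6 ± 1.05 CPM to 42.6 ± 1.48 CPM (-0.22). Of 10 spliceosomal helicases and related proteins 2 rose (20%) and none fell (2 and 4 with library size alone). DDX5 rose from 1380.0 ± 26.8 CPM to 1741 ± 22.6 CPM (0.34) and DHX15, which takes spliceosomes apart, from 246 ± 4.61 CPM to 292 ± 5.08 CPM (0.25).

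Of 15 exon junction and decay genes 4 rose, or 26.7% and near the 24.3% of all tested genes, and none fell (2 and 2 with library size alone). All tested genes gave 22.4% lower, and with library size alone 15.6% higher and 36.1% lower. UPF2, a factor of nonsense-mediated decay, rose from 80.1 ± 4.46 CPM to 111 ± 7.78 CPM (0.47). SMG1, the kinase of that pathway, rose from 246 ± 15.1 CPM to 288 ± 9.66 CPM (0.22), and CASC3 from 99.7 ± 3.50 CPM to 113 ± 6.40 CPM (0.18). Of 23 LSM and snRNP assembly genes 9 rose (39.1%) and 3 fell (4 and 7 with library size alone). The assembly proteins DDX20 and STRAP rose from 82.6 ± 1.65 CPM to 106 ± 3.52 CPM (0.36) and from 386 ± 4.16 CPM to 463 ± 15.8 CPM (0.26), while GEMIN6 of the same complex fell from 51.2 ± 1.78 CPM to 40.8 ± 2.17 CPM (-0.33). Of 16 cleavage and polyadenylation genes 6 rose (37.5%) and none fell (1 and 1 with library size alone). PCF11, a termination factor, rose from 88.4 ± 5.48 CPM to 114 ± 3.42 CPM (0.37), CPSF2 from 109 ± 5.28 CPM to 124 ± 3.18 CPM (0.19) and CLP1 from 33.7 ± 2.92 CPM to 40.1 ± 2.14 CPM (0.25). These 23 genes were picked as up to 3 called genes of lowest p in each list. Of them 18 kept their call in all 17 alternatives. The choice by p favours such a result, so it cannot be set beside the count for the called members. The calls of LUC7L2, SMG1, CASC3, CPSF2 and CLP1 ended on the TPM scale, for the last 3 also with library size alone. In the lists of SR-related, helicase, exon junction and cleavage genes, where edgeR called 0 lower, DESeq2 also called 0 lower, and the only gene lower at an unadjusted p under 0.05 was 1 helicase.

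In the authors' deposited table, 18 of the 63 members were higher and 4 lower at an adjusted p under 0.05, against 14.8% and 12.3% of its 14879 genes. These include genes of low count that the edgeR filter left out, so the shares are not like those above. Of the 11091 genes tested in edgeR 24.3% were higher and 22.4% lower. The calls were the same as those of edgeR for 61 of the 62 tested members. SNRPC was the exception, with an adjusted p of 0.0739 in the authors' deposited table.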

How the data were processed

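RNA from 3 mock and 3 IFN-beta libraries of HD11 cells was analysed. The authors deposited read counts per gene, which are expected counts by their values, with decimals in 2322 of the 14903 genes. TPM were deposited by the authors for these genes as well. Their own result table gives, per the file headers, a log2 fold change, a p-value and a q-value. The submitters' processing notes name the build GRCg6a and DESeq2. The sources used here do not give an aligner, a counter, an annotation version or a strand setting. Genes with near-identical copies or overlapping neighbours are therefore uncertain.

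After rounding of the expected counts, edgeR 4.0.16 (R 4.3.3) was run with group as the term (TMM factors, filterByExpr, which kept 11091 genes, quasi-likelihood F test, Benjamini-Hochberg adjustment over all tested genes, threshold 0.05). CPM use the effective library size. SEs are the log2 fold change divided by the square root of F and are approximate, as are the 95% intervals. Alternatives were other scalings, DESeq2 1.42.0, other filters, a replicate block, limma 3.58.1 on log2(TPM + 1) or log2(TPM + 0.1), and each library left out. TMM factors from genes outside the set were added after seeing the data. The fit was also run on counts simulated at a coefficient of variation of 3.56%, with depth set by library totals. No trend with gene length was built in. That run therefore cannot speak to the length trend or to the choice of scaling. Libraries are labelled as independent biological replicates, and p-values measure the spread between them. Counts of replicate pairs differed by more than sampling noise (chi-square per degree of freedom 1.67 to 4.48).

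The members and gene lists were chosen with earlier results of these data known. Named genes were the called members at both ends of the fold change, the 2 most abundant per family, a fixed group of well known factors and up to 3 called genes of lowest p per list; further members are given by value. A RefSeq table of GRCg7b matched 61 of the 63 members and was used only for names and neighbours, and 6 names differ there. A planned promoter motif search was not run. The result of 1 member is not reported here by name, though the counts include it.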

Additional observations from a re-analysis of the deposited data

How the results depend on the processing

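Which splicing factor genes were called higher or lower depended on how the libraries were scaled and on which libraries were kept. The calls of SNRPD2, SNRNP200 and HNRNPU as lower ended only with 1 library left out. The number higher was 9 with library size alone and 8 in each of the 3 TPM fits, and 17 to 28 with 1 library left out. The number lower was 12 with upper quartile factors, 13 with library size alone, 14 on log2(TPM + 1) and log2(TPM + 0.1) and 11 on log2(TPM + 1) with no filter, and 1 to 7 with 1 library left out. The median log2 fold change of the members was 0.0137 with upper quartile factors, -0.0187 with library size alone, -0.0401 on log2(TPM + 1), -0.0402 on log2(TPM + 0.1) and -0.0405 with no filter, and 0.0617 to 0.0998 with 1 library left out. Of all tested genes 15.6% were higher and 36.1% lower with library size alone, and 18.2% and 30.3% with upper quartile factors. The shares were 13.5% and 37.6% on log2(TPM + 1), and 13.6% and 37.6% on log2(TPM + 0.1). On log2(TPM + 1) with no filter they were 9.36% and 24%. With 1 library left out, 20.8% to 25.1% were higher and 17.9% to 23.4% lower. DESeq2 gave 18 higher and 4 lower, beside 18.5% and 15.4% of the 12293 genes in that fit. TMM factors from genes outside the set, chosen after seeing the data, gave 20 and 4, beside 25% and 21.8%. The TMM factors were 1.03, 1.04 and 1.03 in the mock libraries and 0.973, 0.969 and 0.963 in the IFN-beta libraries. The fit with library size alone uses no such factors. The cause of the shifts between fits was not tested.

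Signs of the log2 fold change were followed only for the named genes defined above, and changes of sign were found in genes of small change. Other members can change sign too. SNRPD3, at 0.08 in the edgeR fit, had a mean of 208.6 TPM in mock and 202.9 TPM in IFN-beta. HNRNPK had -0.0175 with upper quartile factors, -0.0498 with library size alone and -0.0691 (-0.0693 with the smaller pseudocount) on TPM. PRPF19 had -0.0076 with upper quartile factors, -0.0401 with library size alone and -0.0627 (-0.0628 with the smaller pseudocount) on TPM. SNRPB2 had -0.0166 with upper quartile factors, -0.0489 with library size alone and -0.0682 (-0.0685 with the smaller pseudocount) on TPM. SNRPF had -0.0073 with upper quartile factors, -0.0396 with library size alone and -0.0471 on TPM. SF3B1 had -0.0310 with upper quartile factors, -0.0638 with library size alone and -0.0830 (-0.0835 with the smaller pseudocount) on TPM. SNRNP48 had -0.0427 with upper quartile factors, -0.0749 with library size alone and -0.0843 (-0.0923 with the smaller pseudocount) on TPM. With 1 library left out SF3B1 ran from -0.0057 to 0.0657, below 0 without mock replicate 3, and SNRNP48 from -0.0393 to 0.071, below 0 without mock replicate 1. HNRNPA2B1 had -0.0201 with library size alone and -0.0405 (-0.0406 with the smaller pseudocount) on TPM. SRSF3 had -0.0002 with library size alone and -0.0226 on TPM. On TPM alone SRSF7 had -0.0151 and SNRPA1 -0.0097. SNRNP25, at 0.0001 in the edgeR fit, had -0.0018 with DESeq2 size factors, -0.0602 with upper quartile factors, -0.0927 with library size alone, -0.0001 with DESeq2, -0.0003 at a mean of at least 1 CPM, 0 with the replicate block and -0.1124 (-0.1143 with the smaller pseudocount) on TPM. With 1 library left out it ran from -0.0704 to 0.0665.

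With the replicate number as a block, 27 members were higher and 6 lower, against 27.7% and 25.2% of all tested genes. By family the block gave 3 higher and 1 lower among Sm ring genes, where 0 were higher without it, 3 and 1 in the U2 snRNP, 8 and 1 among SRSF, 5 and 1 among HNRNP and 3 and 2 in the tri-snRNP. The numbers were not taken as pairs, since deviations of same-numbered libraries from their group means correlated at 0.065, 0.226 and 0.164 over 8391 genes. Over these genes each library did correlate best with its own number, a hint from the data and not the design. This did not hold over the members. Their same-numbered libraries correlated at 0.263, 0.027 and 0.469, while mock replicate 2 correlated at 0.348 with IFN-beta replicate 1.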
